A study of Mus musculus with 24 samples.

Results

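The 9 genes described here are Ifi203, Ifi204, Ifi205, Ifi206, Ifi207, Ifi209, Ifi211, Ifi213 and Mndal, members of the interferon-inducible Ifi200 family of mice, which belongs to the PYHIN genes. They were taken by gene symbol from the 56691 genes of the deposited tables. Their mRNA was followed by poly(A) RNA-seq in 24 libraries of macrophages, 3 in each of 8 groups. Groups combined a cell type, bone marrow-derived macrophages (BMDMs) or RAW264.7 cells, with an Olfml3 genotype and with PBS or 100 ng/mL lipopolysaccharide (LPS, from the outer membrane of Gram-negative bacteria) for 4 h. The wild type and Olfml3-/- BMDMs were grown in medium with L929 cell supernatant from the marrow of 8-week-old male mice, the knockout mice having been made with CRISPR-Cas9 on C57BL/6. RAW264.7 is a mouse macrophage-like leukemia line, and its knockout cells came from a single-cell clone after CRISPR-Cas9 editing, so that clone and genotype cannot be told apart in that line. Groups follow the sample titles, because a separate genotype tag contradicts the title in 12 of the 24 libraries.

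PYHIN proteins join a pyrin domain, which binds other pyrin domains, to 1 or more HIN domains, which bind DNA. In mice the family has expanded to a run of neighbouring genes, most of which respond to interferon. Ifi204 has been described as a sensor of cytosolic DNA that acts through STING, Ifi203 as a sensor of retroviral DNA, and Ifi207 as a protein that stabilizes STING. Ifi205 has been described as a regulator of Asc and of inflammasome output, and Mndal is related to the human gene MNDA. In macrophages, LPS is detected by TLR4, which leads to interferon β and, through the interferon receptor, to transcription from interferon-stimulated response elements.

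By the deposited tables the 9 genes lie on chromosome 1 between 173296051 and 173859376, a span of 563326 bases that holds 11 other genes. The submitters' processing notes name mm10, but only 2.76% of 52034 genes have the same start and end in a GRCm38 annotation, so those coordinates are given as the tables have them. From the low to the high end the order is Ifi206, Ifi213, Ifi209, Ifi207, Ifi204, Mndal, Ifi211, Ifi203 and Ifi205. Ifi209 is on the plus strand and the other 8 are on the minus strand. The annotated genes resemble each other, and counting reads among them is uncertain to a different degree. Of all distinct 150-base stretches of the Ifi211 transcript in GENCODE M21, 46.4% also occur in a transcript of another gene, and 32.3% occur in Ifi205. The shared part is 12.7% for Ifi205, 9.28% for Ifi209, all of it with Ifi214, 6.77% for Ifi204 and 5.79% for Ifi206. It is 1.61% for Mndal and under that for Ifi203, Ifi213 and Ifi207.

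The promoters of the family share a motif of the interferon-stimulated type. RefSeq promoters on GRCm38.p6 run from 250 bases before to 50 after each start site. They were matched for 8 of the 9 genes, all but Ifi204, and searched on both strands for GAAANNGAAA. This motif occurred for 7 of the 8 genes, against 3.99% of all 27025 genes with a promoter. The stretches around it are shown because they hold the same letters in genes that differed in their response, and capitals mark the motif. They are printed 5′ to 3′ on the strand of each gene, with 25 bases before the motif and 15 after it. Of the 8 stretches, 5 hold GAAATCGAAA, 2 hold GAAATTGAAA, and 6 go on with the same 9 letters right after it. For Ifi209, which has no match, the stretch is the one with the fewest differences, chosen for that, and 1 of the 8 fixed letters differs.
Ifi206: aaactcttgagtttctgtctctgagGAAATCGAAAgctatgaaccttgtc
Ifi213: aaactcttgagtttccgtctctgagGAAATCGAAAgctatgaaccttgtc
Ifi209: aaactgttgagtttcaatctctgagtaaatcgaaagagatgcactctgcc
Mndal: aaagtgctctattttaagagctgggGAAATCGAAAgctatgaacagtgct
Ifi203: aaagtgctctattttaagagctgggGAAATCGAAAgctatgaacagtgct
Ifi205: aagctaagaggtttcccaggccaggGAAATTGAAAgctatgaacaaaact
Ifi211: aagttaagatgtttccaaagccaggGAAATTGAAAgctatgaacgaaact
Ifi207: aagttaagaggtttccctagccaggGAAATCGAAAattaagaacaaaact
The stretches lie at chr1:173491334-173491383 (Ifi206), chr1:173599321-173599370 (Ifi213), chr1:173880199-173880248 (Mndal), chr1:173942503-173942552 (Ifi203), chr1:174031865-174031914 (Ifi205), chr1:173913059-173913108 (Ifi211) and chr1:173741826-173741875 (Ifi207), all on the minus strand, and at chr1:173630755-173630804 (Ifi209) on the plus strand. Mndal and Ifi203 are identical over all 50 bases, Ifi206 and Ifi213 differ at 1 base, and Ifi205 and Ifi211 differ at 5. Counted from the start site, the last base of the printed motif is at -26 in Ifi203, at -64 in Ifi213 and at -125 in Ifi205. For Ifi203 this is in a second listed promoter, and the first listed promoter holds no match. On the other strand, Ifi205 holds a further match from 24 to 33 after the start, and a second listed promoter of Mndal holds one from -54 to -45. A second motif searched, TTCNNNGAA, was in none of the 8 genes and in 9.55% of all genes. A match is a description of letters and not a measured binding site.

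Libraries held 17121240 to 22873094 counts in BMDMs and 11638273 to 16478616 in RAW264.7 cells. Levels are given as FPKM, the count scaled to exon length and to the library total, which allows genes of different length to be compared. Olfml3 in BMDMs was 0.61, 0.53 and 0.65 FPKM in wild type with PBS and 0.03, 0.01 and 0.01 in knockout. In RAW264.7 cells it was 0.19, 0.15 and 0.15 in wild type with PBS but 0.65, 1.01 and 1.19 in the libraries labelled knockout, and with LPS those reached 18.3 to 18.9. The line therefore goes against its label at the mRNA level, and its groups are called wild type and labelled knockout. The 7 macrophage markers summed to 11850 to 17660 FPKM per library in BMDMs, and each was measured there. In RAW264.7 cells they summed to 2729 to 2945 in wild type and 829 to 1286 in the libraries labelled knockout. By the test described below, 3 of 6 markers were lower in labelled knockout with PBS (Adgre1, Itgam and Lyz2). With LPS 3 of 6 were lower (Fcgr1, Itgam and Lyz2). Of all genes 8.55% and 17.3% passed in either direction. The other 3 markers did not pass in either case, and Mertk was at 0 in all libraries of that line. T and NK markers summed to at most 0.22 FPKM in any library, and neutrophil markers to at most 14.7 in BMDMs and 0.12 in RAW264.7 cells. Fibroblast markers reached at most 1.31, and dendritic cell markers at most 0.34 in BMDMs, 1.34 in wild type RAW264.7 cells and 9.91 in the labelled knockout. Ms4a1, which marks B cells, was at most 0.02, whereas Ighm was measured in both cell types and rose in the RAW264.7 libraries labelled knockout. Among the labelled knockout RAW264.7 libraries with PBS, replicate 1 stood apart, and the member results that rest on that group are given with and without it. The part of these differences in the results below was not tested. In bulk RNA, fewer cells of a type and less RNA per cell cannot be told apart.

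Wild type BMDMs expressed every member at rest, whereas RAW264.7 cells hardly expressed 4 of them. In wild type BMDMs with PBS, Ifi207 was highest at 152.8 ± 6.12 FPKM (SD, n = 3), followed by Ifi204 at 91.9 ± 7.28, Ifi211 at 45.0 ± 4.53 and Mndal at 43.2 ± 3.11. Ifi203 was at 25.4 ± 1.75, Ifi209 at 23.5 ± 1.62 and Ifi206 at 4.96 ± 0.996, and Ifi205 and Ifi213 were lowest at 2.62 ± 0.226 and 2.14 ± 0.431. The libraries of Ifi211 and Mndal, of Ifi203 and Ifi209, and of Ifi205 and Ifi213 overlapped, and all other neighbours in this order were apart. In wild type RAW264.7 cells with PBS the order differed, with Mndal at 7.67 ± 0.310, Ifi207 at 4.75 ± 0.225, Ifi213 at 4.24 ± 0.379, Ifi203 at 1.98 ± 0.211 and Ifi204 at 0.98 ± 0.246. Ifi211 had 1 count in each of these 3 libraries, Ifi209 had 2, 2 and 0, and Ifi205 and Ifi206 had 0, which allows up to 0.0168 and 0.0230 FPKM over the group by a limit of 3 counts. This limit covers counting error only. The sum of the 9 genes was 391.6 ± 25.4 FPKM in resting wild type BMDMs and 19.7 ± 1.03 in resting wild type RAW264.7 cells. The cell types were fitted separately, each from its own deposited table, so these levels are set side by side without a test. Any difference in the mouse strain of origin cannot be told apart from cell type here.

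**Figure D1:**
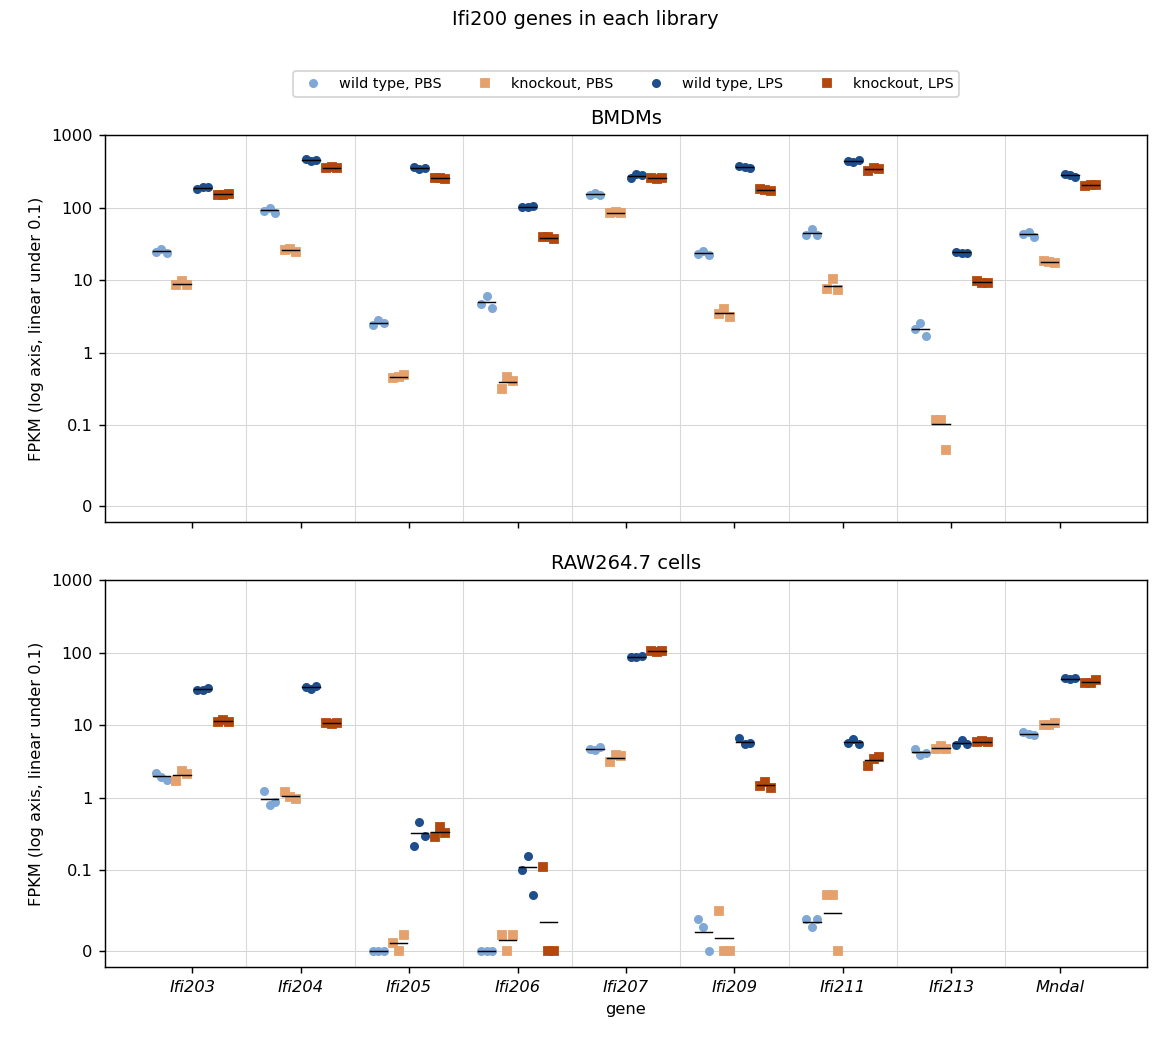
FPKM of the 9 genes in each of the 24 libraries, on a log axis that is linear under 0.1 FPKM, with BMDMs above and RAW264.7 cells below; points are single libraries, black lines are group means, and knockout in the lower panel means labelled knockout. In BMDMs with PBS the knockout libraries lie below the wild type libraries for all 9 genes, and in RAW264.7 cells with PBS Ifi205, Ifi206, Ifi209 and Ifi211 lie at or under 0.07 FPKM.

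The first comparison asked how loss of Olfml3 changed these genes in resting BMDMs. All 9 members were lower in knockout BMDMs with PBS. Ifi213 was 2.10, 2.59 and 1.73 FPKM in wild type and 0.12, 0.12 and 0.07 in knockout, a 20.7-fold difference of means. Ifi206 was 4.72, 6.05 and 4.10 in wild type and 0.32, 0.47 and 0.41 in knockout, which is 12.4-fold. Ifi209 was 22.97, 25.36 and 22.27 against 3.40, 3.99 and 3.15, which is 6.70-fold. These 3 genes, the first of the 9 members in order from the low end, showed the widest separation, and Ifi213 in knockout rests on 9 to 19 counts per library. Ifi205 was 2.41, 2.86 and 2.59 in wild type and 0.45, 0.46 and 0.49 in knockout, which is 5.61-fold. Ifi211 was 42.0, 50.2 and 42.7 against 7.70, 10.3 and 7.36, which is 5.31-fold. Ifi204, the DNA sensor, was 90.2, 99.9 and 85.7 against 26.0, 27.4 and 24.8, which is 3.53-fold. In all of these the lowest wild type library was above the highest knockout library. Ifi203 was 24.8, 27.4 and 24.1 against 8.56, 9.67 and 8.50, which is 2.86-fold. Mndal was 43.7, 46.0 and 39.9 against 18.4, 17.7 and 17.5, which is 2.42-fold. Ifi207, the most abundant member at rest, was 149.7, 159.9 and 148.9 against 85.5, 88.0 and 83.6, the smallest difference at 1.78-fold. Each gene was tested with limma on log2(FPKM + 0.1) over all 26973 genes measured in BMDMs, and a gene passed with an adjusted p (Benjamini-Hochberg) below 0.05 and a difference of at least 1.5-fold. All 9 members passed as lower, where 0.916% of all genes did, and all 9 had every knockout library below every wild type library, where 7.52% of all genes did. Their log2 fold changes ran from -3.45 ± 0.141 (SE; adjusted p = 7.66e-07) for Ifi213 to -0.83 ± 0.0583 (adjusted p = 3.14e-05) for Ifi207, with a median of -2.26 against 0.01 for all genes. Each of the 9 also passed under every alternative tried.

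**Figure D2:**
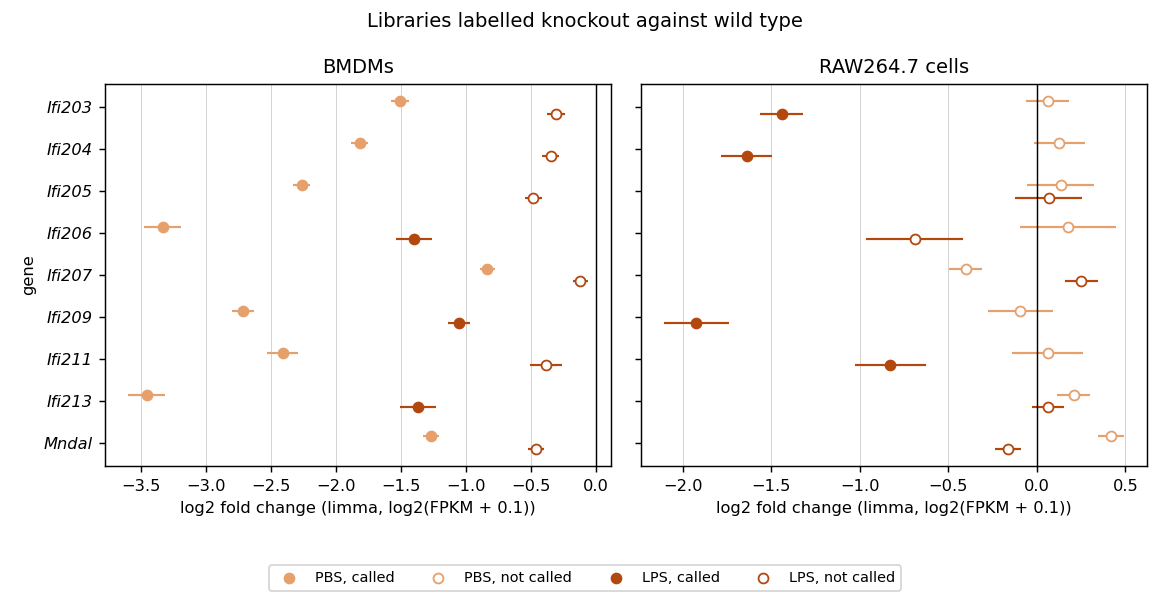
log2 fold change of knockout against wild type (RAW264.7: labelled knockout against wild type) for each gene, with SE bars, in BMDMs on the left and RAW264.7 cells on the right, whose axes differ; filled points passed the test and open points did not. In BMDMs the PBS points of all 9 genes are filled and lie between -3.45 and -0.83, and in RAW264.7 cells only LPS points of Ifi203, Ifi204, Ifi209 and Ifi211 are filled.

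LPS raised every member in BMDMs of both genotypes, and the rise was steeper in knockout. Ifi205 changed most. It went from 2.41, 2.86 and 2.59 FPKM to 366, 345 and 349 in wild type, which is 135-fold, and from 0.45, 0.46 and 0.49 to 256, 257 and 247 in knockout, which is 543-fold. Thus a gene among the lowest at rest reached the level of Ifi209, whose wild type libraries it overlapped. Ifi206 rose 20.7-fold in wild type, to 101.9, 101.1 and 104.4, and 97.2-fold in knockout, to 39.8, 39.3 and 37.4. Ifi213 rose 11.3-fold to 24.8, 23.8 and 24.2, and 90.6-fold to 9.93, 9.06 and 9.11. Ifi209 rose 15.5-fold to 377, 361 and 359, and 50.2-fold to 182, 176 and 171. With LPS all wild type libraries were still above all knockout libraries for 8 of the 9 members, these last 3 among them. This held for 6.75% of all genes. Ifi211 rose 9.80-fold and 40.0-fold, Ifi203 7.42-fold and 17.1-fold, Mndal 6.48-fold and 11.4-fold, and Ifi204 4.94-fold and 13.7-fold, in wild type and knockout. Ifi207, high already at rest, rose least, 1.81-fold to 256, 291 and 286 in wild type and 2.98-fold to 258, 252 and 255 in knockout. After LPS Ifi204 had the highest mean in both genotypes, at 454 ± 11.5 and 358 ± 9.01 (SD, n = 3), although its wild type libraries overlapped those of Ifi211 at 440.5 ± 13.0. The summed level of the family was 2486 ± 25.8 FPKM in wild type and 1785 ± 17.9 in knockout, 6.35-fold and 11.8-fold above PBS, and its counts were 0.887% of all counts in wild type with LPS. All 9 members passed as higher in wild type, where 7.94% of all genes did, and in knockout, where 8.02% did, with median log2 fold changes of 3.29 and 5.32 against -0.30 and -0.28 for all genes. Both LPS comparisons share libraries with the knockout comparisons.

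The test of the difference itself, the genotype by LPS interaction, passed as higher for all 9 members, where 1.91% of all genes did. Values ran from 0.72 ± 0.0824 (SE; adjusted p = 0.00111) for Ifi207 to 2.09 ± 0.199 (adjusted p = 0.000394) for Ifi213. Ifi211 had 2.03 ± 0.172, Ifi206 1.93 ± 0.200 and Ifi205 1.78 ± 0.0909, while Mndal had 0.81 ± 0.0905. The median was 1.66 against 0.05 for all genes. With a pseudocount of 1 Ifi213 was at 0.21 (adjusted p = 0.371) and lost its call, and its values over the alternatives reached 2.89. Over the same alternatives Ifi206 ran from 0.70 to 2.20 and Ifi205 from 0.82 to 1.98, both still past the test.

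**Figure D3:**
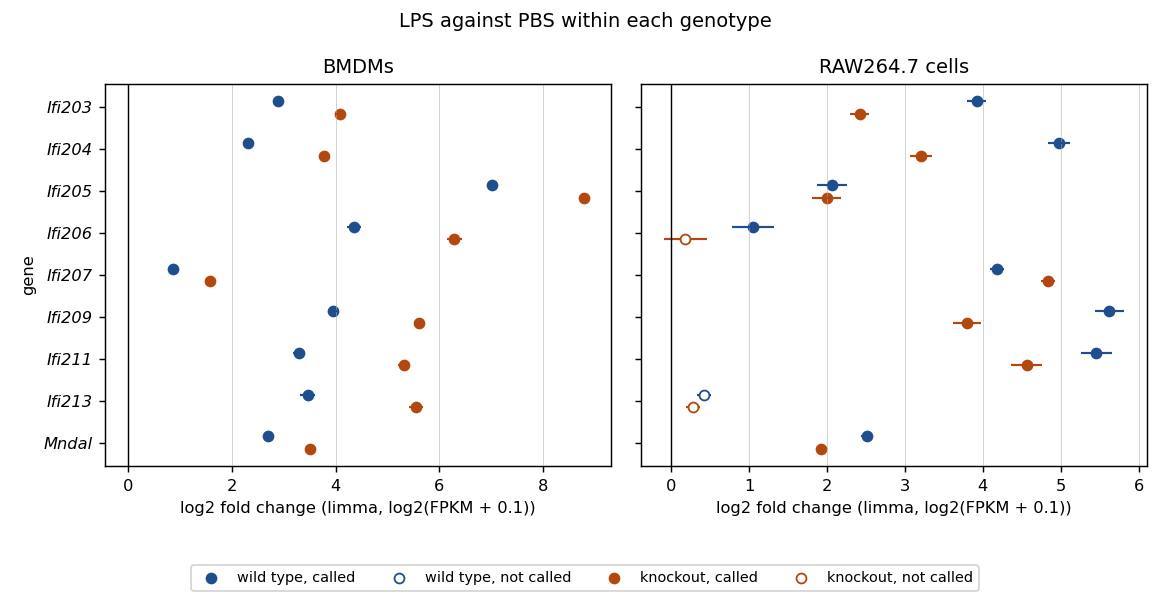
log2 fold change of LPS against PBS for each gene within wild type and within knockout (RAW264.7: labelled knockout), with SE bars, in BMDMs on the left and RAW264.7 cells on the right, whose axes differ; filled points passed the test. In BMDMs each knockout point lies to the right of its wild type point, and in RAW264.7 cells the labelled knockout point lies to the left for 8 genes and to the right for Ifi207.

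With LPS, knockout and wild type BMDMs differed less than at rest. Ifi206 was 2.64-fold, Ifi213 2.59-fold and Ifi209 2.07-fold lower in knockout. On the log2 scale this was -1.40 ± 0.141 (SE; adjusted p = 0.000179), -1.36 ± 0.141 (adjusted p = 0.0002) and -1.05 ± 0.0852 (adjusted p = 5.89e-05). These 3 members passed as lower, where 1.53% of all genes did. Ifi205 was 1.39-fold and Mndal 1.38-fold lower, with adjusted p = 0.000826 and 0.00103 but a fold under the threshold. Both passed with median-ratio scaling, edgeR and DESeq2, which gave 5 members. Ifi204 at -0.35 and Ifi203 at -0.30 also had an adjusted p under 0.05, so that 7 members did whatever their fold, where 17.8% of all genes did. Ifi211 at -0.38 had an adjusted p = 0.0615. Ifi207 did not separate the genotypes, with a log2 fold change of -0.12 ± 0.0583 (adjusted p = 0.243) and overlapping libraries. For 8 of the 9 members all knockout libraries were below all wild type libraries, where 6.75% of all genes were. The genes with the widest difference at rest, Ifi213, Ifi206 and Ifi209, were also those that passed with LPS, and all 9 values were negative.

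RAW264.7 cells responded to LPS with most of the same genes, in a different order. In wild type, Ifi207 went from 4.70, 4.56 and 5.00 FPKM to 88.0, 86.9 and 89.2, which is 18.5-fold, and had the highest level of the family. Ifi204 went from 1.26, 0.80 and 0.88 to 33.3, 32.2 and 34.5, which is 34.0-fold, and Ifi203 from 2.20, 1.95 and 1.78 to 30.9, 30.8 and 32.2, which is 15.8-fold. Mndal went from 7.97, 7.69 and 7.35 to 44.6, 43.1 and 44.5, which is 5.75-fold. All of these separated PBS from LPS without overlap, and the share of all genes that did so is not given here. Ifi209 rose from 4 to 880 counts over the 3 libraries, a ratio, scaled to library totals, of 224 (exact 95% interval 87.1 to 823), and Ifi211 from 3 to 443 counts, a ratio of 150.1 (51.0 to 731). These intervals pool the libraries and cover counting error only. Ifi205, the gene with the steepest rise in BMDMs, reached only 0.22, 0.47 and 0.30 FPKM from 0 counts, at least 19.6-fold. Ifi206 reached 4, 7 and 3 counts from 0, at least 4.78-fold. These 2 bounds use the limit of 3 counts for PBS and leave out the counting error of the LPS counts. With a pseudocount of 1 both Ifi205, at 0.41, and Ifi206, at 0.15, were under the fold threshold. Ifi213 was 4.65, 3.90 and 4.18 with PBS and 5.33, 6.24 and 5.61 with LPS, 1.35-fold and under the fold threshold (adjusted p = 0.00618), although it passed with median-ratio scaling, edgeR and DESeq2. Thus 8 members passed as higher in wild type, where 5.8% of all genes did, with a median log2 fold change of 3.92, or 4.18 with the genes at 0 set to their bound, against -0.05 for all genes. The call for Ifi206 was lost without any one of the 3 wild type PBS libraries, with adjusted p = 0.0532 to 0.0559, and without wild type LPS replicate 2 (adjusted p = 0.0742). In the libraries labelled knockout 7 members passed as higher, where 7.45% of all genes did, with a median of 2.42 against -0.07. Without replicate 1 of the labelled knockout with PBS, 7 members passed too, where 6.72% of all genes did, with a median of 2.29. Ifi206, at 4, 0 and 0 counts with LPS, and Ifi213, at 1.22-fold, did not pass there.

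At rest the RAW264.7 libraries labelled knockout showed no member past both thresholds, where 8.55% of all genes passed in either direction. Without replicate 1 of the labelled knockout no member passed either, while the share of all genes rose to 20.5%. limma gave 3 members at an unadjusted p under 0.05, which at least 12.1% of all genes also had, and edgeR and DESeq2 also passed 0. Mndal was 10.0, 10.0 and 10.8 FPKM against 7.97, 7.69 and 7.35 in wild type, a log2 fold change of 0.42 ± 0.0725 (SE; adjusted p = 0.0061), and 0.44 without replicate 1 of the labelled knockout. Ifi207 was 3.09, 3.87 and 3.80 against 4.70, 4.56 and 5.00, a log2 fold change of -0.40 ± 0.0924 (adjusted p = 0.0237), and -0.30 without that replicate. Mndal and Ifi207 thus separated the groups in opposite directions by less than 1.5-fold, and they were the 2 members with an adjusted p under 0.05, where 12.1% of all genes had one (33.2% without that replicate). Ifi213 was 4.76, 5.17 and 4.78 against 4.65, 3.90 and 4.18, with adjusted p = 0.16. The libraries labelled knockout were all above wild type for 2 members, Mndal and Ifi213, where 13.7% of all genes were. Ifi203 at 2.08 ± 0.343 against 1.98 ± 0.211 and Ifi204 at 1.06 ± 0.112 against 0.98 ± 0.246 (SD, n = 3) overlapped. The median over the 9 members was 0.13 against 0.02 for all genes.

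With LPS, 4 members were lower in the RAW264.7 libraries labelled knockout. Ifi209 was 6.59, 5.61 and 5.63 FPKM in wild type and 1.45, 1.65 and 1.38 in labelled knockout, 3.98-fold. Ifi204 was 33.3, 32.2 and 34.5 against 10.7, 10.4 and 10.8, 3.13-fold. Ifi203 was 30.9, 30.8 and 32.2 against 11.19, 12.03 and 11.19, 2.73-fold. None of these 3 genes overlapped. Of the 9 members, 5 had all labelled knockout libraries below wild type and 1 had them above. The share of all genes that did so is not given here. For Ifi209, Ifi204 and Ifi203 the log2 fold changes were -1.92 ± 0.183, -1.64 ± 0.143 and -1.44 ± 0.122 (SE), with adjusted p = 0.00011, 6.61e-05 and 5.49e-05. Ifi211, much of whose sequence is shared with Ifi205, was 5.69, 6.51 and 5.51 against 2.79, 3.40 and 3.70, at -0.83 ± 0.199 (adjusted p = 0.0156). Its call was lost with TPM scaling and without wild type LPS replicate 2 (adjusted p = 0.0554) or labelled knockout LPS replicate 1 (adjusted p = 0.0562). With a pseudocount of 0.01 Ifi209 and Ifi211 did not pass (adjusted p = 0.0968 and 0.436). Ifi206, at 4, 7 and 3 counts in wild type and 4, 0 and 0 in labelled knockout, was at -0.69 (adjusted p = 0.0969), and it passed at -1.05 (adjusted p = 0.00458) without labelled knockout LPS replicate 1. The other 4 members did not pass. Ifi207 was 104.9, 102.7 and 106.7 in labelled knockout against 88.0, 86.9 and 89.2, above wild type in every library (log2 fold change 0.25 ± 0.0924, adjusted p = 0.0775). Mndal was 37.8, 38.8 and 41.6 against 44.6, 43.1 and 44.5, at -0.16 ± 0.0725 (adjusted p = 0.141). Ifi205 at 0.34 ± 0.0557 against 0.33 ± 0.128 and Ifi213 at 5.98 ± 0.122 against 5.73 ± 0.466 (SD, n = 3) overlapped. The 4 lower members stand against 7.6% of all genes that passed as lower, and the median of the 9 was -0.69 against 0. The sum of the macrophage markers given above was also lower in these libraries, 829 to 863 FPKM against 2729 to 2870. Of the 6 markers tested, 3 passed as lower and 3 did not pass. The part of the markers in this result was not tested.

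The interaction in RAW264.7 cells passed as lower for Ifi209 at -1.83 ± 0.258 (SE; adjusted p = 0.00649), Ifi204 at -1.76 ± 0.202 (adjusted p = 0.00204) and Ifi203 at -1.502 ± 0.173 (adjusted p = 0.00207), and as higher for Ifi207 at 0.65 ± 0.131 (adjusted p = 0.0357). Of all genes 1.04% passed as lower and 0.905% as higher, and 2.16% and 1.28% without replicate 1 of the labelled knockout with PBS. The call for Ifi207 was lost in 13 alternatives, among them TPM scaling (adjusted p = 0.156), a pseudocount of 0.01 (adjusted p = 0.0996) and the replicate block (adjusted p = 0.0784). Without this PBS replicate, Ifi209 was at -1.63, Ifi204 at -1.69 and Ifi203 at -1.63, all still past the test, and Ifi207 at 0.55 was under the fold threshold. Ifi209 did not pass with edgeR or DESeq2 (adjusted p = 0.697 and 0.696), and its PBS groups held 4 and 3 counts. The interaction of these 3 genes thus had the opposite sign in RAW264.7 cells and in BMDMs, where Ifi209, Ifi204 and Ifi203 were at 1.663, 1.469 and 1.199. That difference between cell types was not tested.

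Along the chromosome the other PYHIN genes of the cluster moved in part with the 9 members. Ifi208, between Ifi209 and Ifi207, fell in knockout BMDMs with PBS from 0.94, 1.47 and 1.01 FPKM to 0.14, 0.19 and 0.08, at -2.39 ± 0.183 (SE; adjusted p = 6.29e-05), and Ifi203-ps, next to Ifi204, fell by 1.49 on the log2 scale. Aim2, the inflammasome sensor at the low edge, was 13.5, 13.9 and 13.3 against 12.3, 12.8 and 12.3, at -0.12 ± 0.0445 (adjusted p = 0.222). Ifi202b, between Ifi203 and Ifi205, was near 0 in resting BMDMs and reached only 0.37, 0.59 and 0.61 with LPS in wild type. In RAW264.7 cells the same gene went from 0.84, 0.58 and 0.81 to 112, 115 and 115 in wild type, above every one of the 9 members, and to 31.9, 31.8 and 32.6 in labelled knockout, a log2 fold change between genotypes with LPS of -1.83 ± 0.258 (adjusted p = 0.00123). LPS raised these 4 and Ifi214, all 5 other PYHIN genes, in both genotypes of both cell types, where 5.8% to 8.02% of all genes rose. In RAW264.7 cells Ifi208 and Ifi214 stayed low, with means of at most 0.18 and 0.227 FPKM with LPS. The BMDM interaction passed as higher for Ifi203-ps and Ifi208 and as lower for Ifi214. Although Ifi214 lies between Ifi206 and Ifi213, it did not pass in knockout BMDMs with PBS. Of the 10 other genes tested inside the span in BMDMs, 2 fell in knockout with PBS and none rose, where 0.916% of all genes fell. Of the 5 nearest expressed genes on each side none passed. With LPS 4 of the 10 fell, and 1 of the 5 on the low side, where 1.53% of all genes fell. In labelled knockout RAW264.7 cells with PBS, 2 of 8 inside fell, and 2 of the 5 on the low side. With LPS 4 of these 8 fell, and 1 on the low side. On the high side 1 rose and 1 fell. Of all genes there 8.55% passed in either direction with PBS and 17.3% with LPS.

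**Figure D4:**
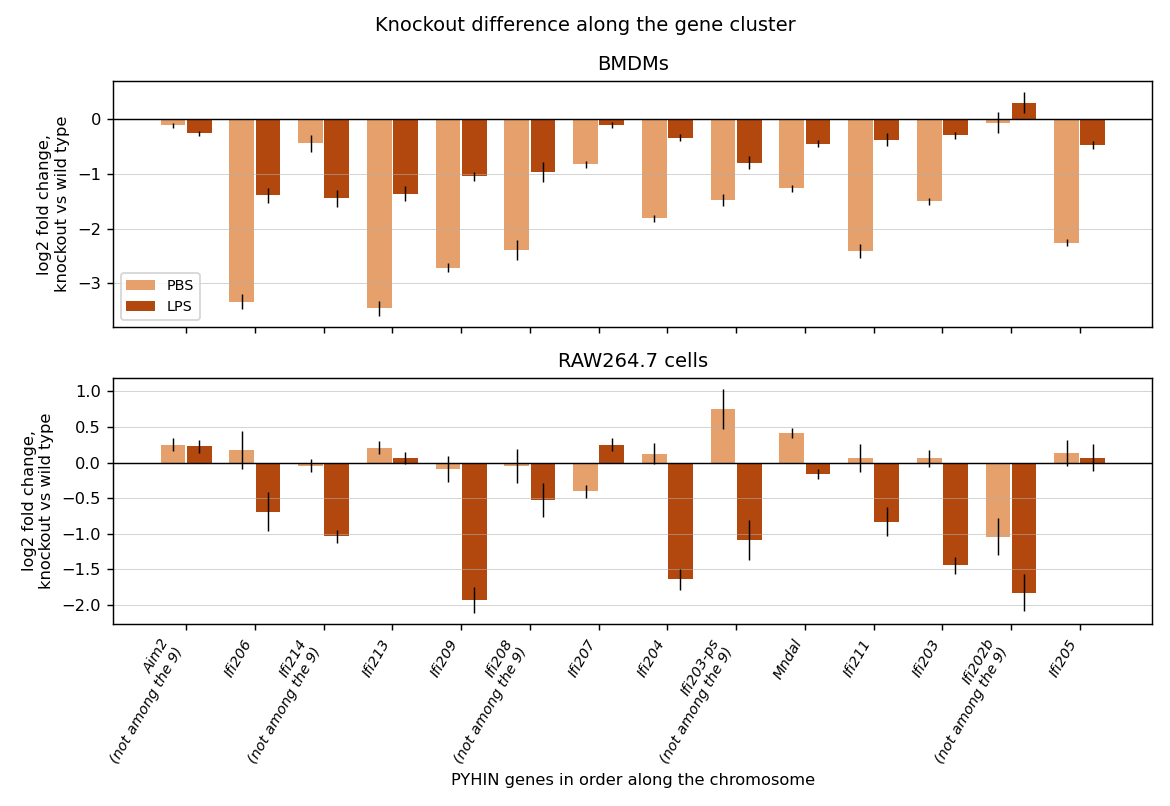
log2 fold change of knockout (RAW264.7: labelled knockout) against wild type, with SE bars, for the PYHIN genes in their order along chromosome 1, evenly spaced, in BMDMs above and RAW264.7 cells below. In BMDMs with PBS Aim2 at -0.12 stands beside members that lie between -3.45 and -0.83. Ifi202b at -0.07 was near 0 FPKM in these libraries, so its value cannot show whether it changed.

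In the pathways around the family, Irf7, Usp18, Irf9 and Zbp1 fell at rest in knockout BMDMs and in the RAW264.7 libraries labelled knockout. Of 11 interferon signalling genes, 4 fell in knockout BMDMs with PBS, where 0.916% of all genes did, and none rose: Irf7, the factor that amplifies interferon production, from 21.9, 27.5 and 21.2 FPKM to 2.05, 2.13 and 1.97, and Usp18, a brake on the receptor, Stat2 and Irf9 with log2 fold changes of -2.60, -1.30 and -0.91. With LPS the 4 did not pass both thresholds, while Ifnb1, at 6.53, 7.15 and 4.95 in wild type and 2.34, 2.51 and 2.73 in knockout, fell by 1.25 on the log2 scale (adjusted p = 0.00652), and Socs1 fell by 1.04, so that 2 of 11 fell, where 1.53% of all genes did. In RAW264.7 cells with PBS, Irf7, Usp18, Irf9 and Socs1 fell in the libraries labelled knockout, with log2 fold changes of -3.23, -3.14, -0.71 and -0.70, and Tyk2 rose by 0.79, while no member of the Ifi200 family passed. These are 5 of 11 genes, where 8.55% of all genes passed in either direction, and without replicate 1 of the labelled knockout these 5 passed, with Irf7 at -3.20 and Usp18 at -3.35, and Jak1 also rose, by 0.61. With LPS, 4 of the 11 fell there and Tyk2 rose, where 17.3% of all genes passed in either direction. Of 7 genes of cytosolic DNA sensing, only Zbp1 fell in knockout BMDMs with PBS, by 3.13, and Cgas was 6.73 ± 0.562 against 6.70 ± 0.329 FPKM (SD, n = 3). In labelled knockout RAW264.7 cells with PBS, 2 of the 7 fell, Zbp1 by 1.70 and Ikbke by 1.47. With LPS 2 of the 7 fell in each cell type, where 1.53% of all genes fell in BMDMs and 7.6% in RAW264.7 cells. Sting1 fell by 1.58 in knockout BMDMs and by 0.77 in labelled knockout RAW264.7 cells, and Zbp1 fell by 0.74 and by 0.93. Of 9 inflammasome genes none passed in knockout BMDMs with PBS, where limma called 1.82% of all genes in either direction, and 1, Il1b, passed as higher with LPS.

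Among themselves the members followed nearly the same course over the 12 BMDM libraries, with Pearson r of log2(FPKM + 0.1) from 0.945 to 0.999 over 36 pairs (median 0.992). In RAW264.7 cells r ran from 0.547 to 0.997 (median 0.935), with the low values at Ifi206, which rests on few counts, and Ifi213. Both the treatment and the libraries are common to every pair, so these values are a description. The genes most like the mean of the family in BMDMs, of 11429 ranked, were Phf11b, Ddx60, Slfn5, Trim30d and Lgals9, with r from 0.998 to 0.999. Phf11b, for one, had group means of 23.5 FPKM in wild type and 5.37 in knockout with PBS, and of 265.1 and 170.1 with LPS. In RAW264.7 cells, of 12301 ranked, they were Wdr1, Zfp36, Daxx, Irf8 and Trafd1, with r from 0.997 to 0.998, and Daxx had 15.8 and 15.1 with PBS and 107.9 and 69.9 with LPS. The lists of the 2 cell types had no gene in common.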

How the data were processed

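RNA-seq of 24 libraries was analysed from 1 deposited table per cell type, each holding raw counts per gene and FPKM that the authors computed from those counts. The deposited FPKM matched counts, exon length and library total to within 1%, among values over 50 counts, in 99.9% of cases for the RAW264.7 table and 99.5% for BMDMs. No aligner or counting program is given in the sources used here, and mm10 is the build in the submitters' processing notes. The deposited exon lengths and annotation columns were used as given.

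limma 3.58.1 under R 4.3.3 fitted log2(FPKM + 0.1) with 4 group means per cell type over 12 libraries, for genes with FPKM above 0 in at least 1 library (26740 in RAW264.7 cells, 26973 in BMDMs), since the methods of the study name limma with thresholds of 0.05 (adjusted p) and 1.5 (fold). Prior degrees of freedom were 1.43 and 1.28 beside 8 residual. Benjamini-Hochberg adjustment ran over all genes of a comparison. Fold changes on this scale understate changes of low genes. The study calls the libraries of a group biological replicates, but the sources used here do not say whether each came from a separate culture or animal, and p-values measure only the spread between these libraries.

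Alternatives were pseudocounts of 0.01 and 1, a filter of FPKM 0.1 in 3 libraries, TPM and median-ratio scaling, edgeR 4.0.16 (quasi-likelihood) and DESeq2 1.42.0 on the deposited counts, calls by adjusted p without the fold, a fit on only the groups compared, a replicate block, and leaving out each library in turn. The main limma fit, edgeR and DESeq2 were tested on simulated data, and the other alternatives were not. The family members, the gene lists (other PYHIN, inflammasome, DNA sensing, interferon signalling, cell markers) and the rule for the most similar genes were chosen with earlier results of these data known. Named genes are these lists, the neighbours of the cluster, and the 5 genes per cell type with the highest Pearson r to the mean of the members. Promoters are from RefSeq (GRCm38.p6), and shared 150-base stretches, the read length, were counted in GENCODE M21 transcripts. Of the genes in these lists, 2 are not reported here.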

Additional observations from a re-analysis of the deposited data

Results flagged for a closer look

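Genotype effects that differed between PBS and LPS by the interaction test were found for all 9 members in BMDMs. On the log2 scale the values were 1.199 for Ifi203, 1.47 for Ifi204, 1.78 for Ifi205, 1.93 for Ifi206, 0.72 for Ifi207, 1.66 for Ifi209, 2.03 for Ifi211, 2.09 for Ifi213 and 0.81 for Mndal. In RAW264.7 cells they were -1.502 for Ifi203, -1.76 for Ifi204, -1.83 for Ifi209 and 0.65 for Ifi207. Of these genes Ifi207 was positive in both cell types and the other 3 changed sign between them. In RAW264.7 cells the call for Ifi207 was lost in 13 alternatives. Ifi209, with 4 and 3 counts in its PBS groups there, lost its call in 3, edgeR and DESeq2 among them.

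With PBS, 2 members had all labelled knockout libraries above wild type in RAW264.7 cells, as 13.7% of all genes did, and all knockout libraries below wild type in BMDMs, as 7.52% did. All 9 members were below in BMDMs, so only the RAW264.7 side picked out these 2. There 2 of 9 is not far from the share of all genes. Ifi213 had log2 fold changes of 0.21 and -3.45, and Mndal had 0.42 and -1.27. Neither passed both thresholds in RAW264.7 cells, and the difference between cell types was not tested.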

How the results depend on the processing

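Over 22 alternatives per cell type, 1884 of 1957 member values kept their direction and side of the thresholds, and no member that passed changed sign. All 9 members stayed past the test in BMDMs at rest, in both BMDM LPS responses and, but for Ifi213 with a pseudocount of 1, in the BMDM interaction. Counts of members past the test moved as follows. For RAW264.7 labelled knockout with PBS (0), TPM scaling gave 1 and the adjusted p alone 2. A pseudocount of 0.01 gave 2 for RAW264.7 labelled knockout with LPS and 2 for the RAW264.7 interaction. A pseudocount of 1 gave 6 for LPS in wild type RAW264.7 cells (8), without Ifi205 and Ifi206, and 6 in labelled knockout (7), without Ifi205. For BMDM knockout with LPS (3), median-ratio scaling, edgeR and DESeq2 each gave 5 and the adjusted p alone 7. Leaving out 1 library gave 3 to 4 for RAW264.7 labelled knockout with LPS, 7 to 8 for LPS in wild type RAW264.7 cells and 3 to 5 for the RAW264.7 interaction, and did not change the other 7 counts. Without RAW264.7 wild type PBS replicate 1, the Ifi207 interaction had adjusted p = 0.0665. It also missed a threshold in 12 other alternatives. Mndal passed that interaction when any one of 5 libraries was left out.

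Values that changed sign were all of members that had not passed, in RAW264.7 cells. With PBS, Ifi211 was -0.21 with a pseudocount of 0.01. Leaving out 1 library moved the labelled knockout differences with PBS from -0.037 to 0.19 for Ifi203, from -0.29 to 0.0057 for Ifi209 and from -0.067 to 0.32 for Ifi211. With LPS, Mndal was 0.071 with TPM scaling, and leaving out 1 library moved Ifi205 from -0.13 to 0.29. For LPS in labelled knockout that range was -0.18 to 0.36 for Ifi206. The Ifi205 interaction was 3.03e-05 with a pseudocount of 1, 0.10 with TPM scaling, and from -0.26 to 0.16 without 1 library.

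Same-numbered libraries did not deviate together (correlations of -0.04 to 0.08 in RAW264.7 cells and -0.06 to 0.07 in BMDMs), so the numbers were not taken as pairs. With the replicate number as a block the counts were the same except 3 for the RAW264.7 interaction. Median-ratio scaling shifted the median of all genes by 0.30 for LPS in wild type BMDMs and moved the share of passing genes that were higher from 19.6% to 48.0% there, from 67.9% to 43.3% for BMDM knockout with LPS, and from 31.7% to 49.7% for LPS in wild type RAW264.7 cells. The causes were not tested. Low counts limit Ifi205, Ifi206, Ifi209 and Ifi211 in resting RAW264.7 cells.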
